A study of Xenopus tropicalis x Xenopus laevis and Xenopus tropicalis with 6 samples.

Results

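The cytosolic ribosomal protein genes were followed copy by copy in hybrid frog embryos that carry genomes of 2 species. Members were chosen by name alone: every feature of the deposited count table whose gene symbol, with an ending .L or .S removed, is that of a large-subunit protein (rpl), a stalk protein (rplp0, rplp1 or rplp2) or a small-subunit protein (rps, rpsa). This gave 117 of 45244 features, namely 63 Xenopus tropicalis copies among 18062 X. tropicalis features, and 28 L and 26 S copies among 27182 Xenopus laevis features. All 63 gene names had an X. tropicalis feature. An X. laevis feature under the same name existed for 31 of them, of which 23 had both L and S, 5 had L alone and 3 had S alone. The other 32 names were X. tropicalis features only, so no paternal copy of theirs is a member.

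The hybrid embryos came from eggs of X. tropicalis fertilized with sperm of X. laevis. The embryos they are compared with had X. tropicalis as both parents. Both were taken whole at 7 hours post fertilization (hpf), and polyA RNA was sequenced from 3 libraries of each kind, described by the submitters as biological replicates (hybrid libraries 40, 41 and 42, and X. tropicalis libraries 37, 38 and 39). The labels give neither the number of embryos per library nor the parents, and no treatment was applied to either group. Hybrids of this direction are known to die in early development after losing part of the paternal chromosomes 3L and 4L, and the series asks what that loss does to the transcriptome. Libraries held between 71435751 and 88526278 counts in hybrids and between 90144765 and 100025277 in X. tropicalis embryos. X. laevis features took 16.7% ± 1.20 of the counts in hybrids and 5.66% ± 0.302 in X. tropicalis embryos (SD, n = 3 each). The second value is background, since those embryos hold no X. laevis genome. Of 20 blastula and early gastrula marker genes, 17 had an X. tropicalis feature and 14 lay above 10 CPM (counts scaled to a common library size) on average. Their summed level was 2708 to 3509 CPM in the hybrids and 4431 to 4538 CPM in X. tropicalis embryos, and the part of that difference in the results below was not tested. The 5 features found for 9 markers of differentiated tissue were all under 1 CPM. In whole embryos, fewer cells of a type and less RNA per cell cannot be told apart.

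Ribosomal proteins are the structural proteins of the cytosolic ribosome. Small-subunit proteins line the path of the mRNA, and large-subunit proteins belong to the subunit in which peptide bonds form. The acidic stalk proteins rplp1 and rplp2, anchored by rplp0, recruit translation factors. Their mRNAs start with a terminal oligopyrimidine tract, which lets the cell hold or release their translation as a group. In Xenopus, the egg brings a large store of ribosomes, and zygotic transcription of most genes starts at the midblastula transition, shortly before the stage sampled here. X. laevis is an allotetraploid with 2 subgenomes, L and S, so most of its ribosomal protein genes once came as an L and S pair, whereas X. tropicalis is diploid.

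The X. tropicalis copies are present in both kinds of embryo, and they are the only copies whose level can be compared between them. X. laevis RNA may leave counts on X. tropicalis features in the hybrids alone. No library here measures that, and its part in the values below was not tested. Levels of the X. tropicalis copies are given as CPM of X. tropicalis-feature counts with trimmed-mean (TMM) scaling. The values are not divided by transcript length, so levels of different genes are not set against each other. All 63 were tested. 1 of them, rpl22l1, was higher in hybrids at an adjusted p under 0.05, and none was lower (edgeR's quasi-likelihood test with Benjamini-Hochberg adjustment over 14079 X. tropicalis features). Over all tested X. tropicalis features, 0.76% were higher and 3.0% were lower at that threshold, so 1 of 63, or 1.59%, differs little from the background. Before adjustment, at a p under 0.05, 17 members were on the higher and 0 on the lower side, with 7.56% higher and 10.3% lower over all features. DESeq2 called 7 higher and 0 lower, against 2.83% and 5.65% of all features. The family thus held few called members, but its members lay mostly on the higher side.

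That shift is small and shared. The log2 fold change, hybrid over X. tropicalis, was positive in 54 of 63 members (85.7%, against 49.5% of all tested features) and negative in 9 (14.3%, against 50.5%). Its median was 0.32, with quartiles of 0.11 and 0.59 and a range from -0.43 for rpl23 to 0.99 for rpl39. The median over all tested features was -0.01. Large-subunit members had a median of 0.32 (37 genes), small-subunit members 0.27 (23 genes) and the stalk proteins 0.39 (3 genes), so no subunit carried the shift alone. Hybrid and X. tropicalis libraries did not overlap in 18 members with the hybrids on top and in 0 with the hybrids below, whereas 11.0% and 13.3% of all tested features were separated in those directions. The standard error of a member's log2 fold change had a median of 0.22, which is of the size of the shift itself.

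**Figure D1:**
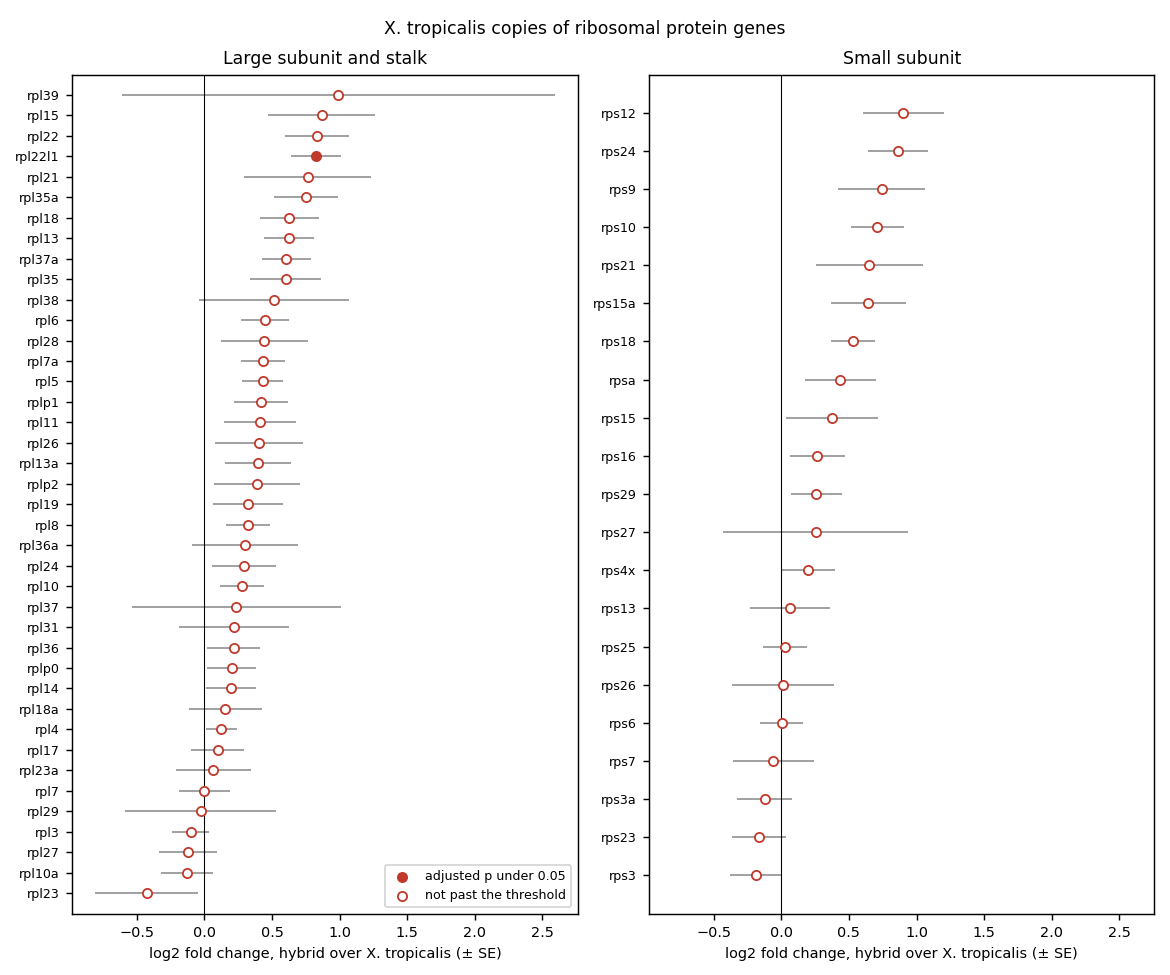
Log2 fold change of 61 of the X. tropicalis copies, hybrid over X. tropicalis embryos (horizontal axis, log2 units, bars ± SE, 3 libraries per group), for large-subunit and stalk genes (left) and small-subunit genes (right). Of the 61 points, 52 lie right of 0, and the filled point, rpl22l1, is the single member with an adjusted p under 0.05.

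The libraries within a group differed as well. Relative to the mean of the X. tropicalis libraries, the median over the 62 X. tropicalis copies with counts in every library was 0.19, 0.51 and 0.40 (log2) in the 3 hybrid libraries, and -0.27, 0.29 and 0.07 in X. tropicalis libraries 37, 38 and 39. The lowest hybrid library thus lay under the highest X. tropicalis library. Ribosomal proteins made up 0.395%, 0.492% and 0.463% of all X. tropicalis-feature counts in the hybrid libraries and 0.287%, 0.404% and 0.360% in the X. tropicalis libraries, with means of 0.450% ± 0.0502 and 0.350% ± 0.0595 (SD, n = 3 each). These 2 groups overlapped, and no test was made on a sum over members. Without X. tropicalis library 37 the median log2 fold change was 0.21, and without library 38 it was 0.48. When the libraries were scaled to the counts of both species together, the median over all X. tropicalis features moved to -0.19 and that of the ribosomal proteins to 0.14, with 45 of 63 positive. The family's distance from all features was 0.33 on both scales.

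rpl22l1, the paralogue of the large-subunit protein rpl22 and the only ribosomal protein paralogue among the members, had 82.1, 94.6 and 116 CPM in the hybrid libraries and 44.6, 57.9 and 63.0 CPM in the X. tropicalis libraries. Every hybrid library lay above every X. tropicalis library. The fold was 1.77 (log2 fold change 0.82 ± 0.19 SE, adjusted p = 0.0378, edgeR). The call did not hold with library totals over both species (adjusted p = 0.0712), nor without hybrid library 41 or 42 (0.116 and 0.150) or without X. tropicalis library 37, 38 or 39 (0.111, 0.0732 and 0.0707, all edgeR).

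The members with the next smallest p did not pass the threshold in the edgeR fit. Among small-subunit genes, rps24, a protein needed for small-subunit rRNA processing in human cells, had 120, 169 and 190 CPM in the hybrids and 77.5, 115 and 70.7 CPM in X. tropicalis embryos, with no overlap (log2 fold change 0.86 ± 0.22, adjusted p = 0.0615, edgeR). rps10, which sits on the head of the small subunit, had 52.2, 57.4 and 54.1 CPM in the hybrids and 25.8, 39.01 and 35.3 CPM in X. tropicalis embryos (0.71 ± 0.20, adjusted p = 0.0843, edgeR). rps18, also a protein of the small-subunit head, had 296, 321 and 392.4 CPM in the hybrids and 207, 285 and 207 CPM in X. tropicalis embryos (0.53 ± 0.16, adjusted p = 0.115, edgeR). In each of these genes the groups were separated, but the estimates stayed short of the threshold over all features.

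Among large-subunit genes, rpl22 had 36.0, 60.7 and 58.3 CPM in the hybrids and 24.0, 33.3 and 29.8 CPM in X. tropicalis embryos (log2 fold change 0.83 ± 0.24, adjusted p = 0.0949, edgeR). rpl22 and its paralogue rpl22l1 thus had log2 fold changes of nearly the same size. rpl37a had 63.6, 77.6 and 86.1 CPM in the hybrids and 42.1, 54.9 and 52.4 CPM in X. tropicalis embryos (0.61 ± 0.18, adjusted p = 0.105, edgeR). rpl13 had 98.3, 108 and 85.3 CPM in the hybrids and 57.2, 79.5 and 52.5 CPM in X. tropicalis embryos (0.63 ± 0.19, adjusted p = 0.109, edgeR). rpl35a had 25.2, 23.6 and 31.7 CPM in the hybrids and 13.9, 17.5 and 16.3 CPM in X. tropicalis embryos (0.75 ± 0.23, adjusted p = 0.123, edgeR). All 4 were separated between the groups. DESeq2 called rpl22, rpl37a, rpl13, rps24, rps10 and rps18 beside rpl22l1, at adjusted p of 0.0226, 0.0306, 0.0267, 0.00194, 0.0221, 0.0165 and 0.00132 in that order, but not rpl35a (0.0658).

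The stalk proteins had positive log2 fold changes that did not pass. rplp0, the anchor of the stalk, had 98.7, 93.2 and 74.9 CPM in the hybrids and 66.8, 96.2 and 69.3 CPM in X. tropicalis embryos, which overlap (log2 fold change 0.20 ± 0.18, adjusted p = 0.667, edgeR). rplp1 had 198, 336 and 285 CPM in the hybrids and 172, 248 and 193 CPM in X. tropicalis embryos, which overlap too (0.42 ± 0.20, adjusted p = 0.313, edgeR). The member rplp2 was separated, with 10.3, 11.3 and 10.4 CPM in the hybrids and 7.59, 7.12 and 9.65 CPM in X. tropicalis embryos (0.39 ± 0.31, adjusted p = 0.608, edgeR). Its counts were 680, 857 and 594 in hybrids. Another X. tropicalis feature with the human gene name RPLP2, no member by its own symbol, held more counts. It had 4793, 6190 and 5279 in hybrids and 3315, 5500 and 4819 in X. tropicalis embryos (0.67 ± 0.21, adjusted p = 0.118, edgeR).

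**Figure D2:**
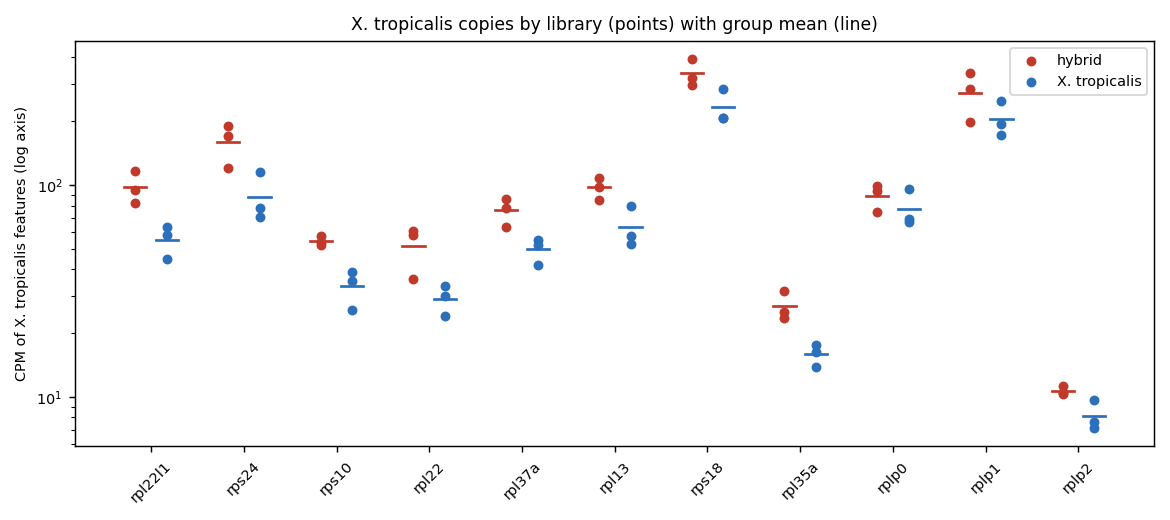
Level of the X. tropicalis copy (CPM of X. tropicalis-feature counts, log axis) in each library (points) with the group mean (line), hybrids left and X. tropicalis embryos right of each gene, for the 8 genes with the smallest p and the 3 stalk genes. The groups are separated in the 8 genes and in rplp2, and overlap in rplp0 and rplp1.

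At the other end, 9 members had a negative log2 fold change and none was near the threshold. rpl23, on the face of the large subunit that meets the small one, had 7.42, 7.79 and 5.28 CPM in the hybrids and 12.7, 8.20 and 6.70 CPM in X. tropicalis embryos (-0.43 ± 0.38, adjusted p = 0.651, edgeR). rps3, on the mRNA entry side of the small subunit, had 45.3, 56.3 and 62.5 CPM in the hybrids and 58.0, 74.2 and 55.0 CPM in X. tropicalis embryos (-0.19 ± 0.19, adjusted p = 0.701, edgeR). The groups overlapped in both. rpl39, with the highest fitted value of 0.99, rested on 1.06, 1.79 and 2.25 CPM in the hybrids and 0, 1.66 and 0.907 CPM in X. tropicalis embryos, and its standard error was 1.60. rpl23, rps3 and rpl39 were picked out here after their values were seen.

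The paternal copies answer a different question: whether the X. laevis gene is represented in hybrid RNA above the counts that X. tropicalis RNA alone leaves on it. Their levels are CPM of all counts of both species with the same TMM factors, and a net level is the hybrid CPM minus the mean CPM in the X. tropicalis libraries. Of 54 paternal copies, 53 had at least 10 counts over the 6 libraries and were tested. The exception was rps10.L, with 2, 2 and 0 counts in hybrids and none in X. tropicalis embryos. Paternal copies lay above background in 44 of the 53, with an adjusted p under 0.05 (edgeR's quasi-likelihood test with Benjamini-Hochberg adjustment over all 24726 tested X. laevis features), and 0 lay below it. Among all tested X. laevis features, 37.4% were above background and 0.433% below. By subgenome, 21 of 27 tested L copies passed (77.8%, against 35.2% of all L features), and 23 of 26 S copies did (88.5%, against 41.3% of all S features). The numbers of copies that had every hybrid library above every X. tropicalis library were the same, 21 and 23, but not all the copies were: 3 copies, rpl19.L and rpl29.S among them, passed with 0 counts in 1 hybrid library, while rplp0.L, rps13.L and rps29.S were separated without passing. Of all tested features, 41.2% of L and 47.0% of S features were separated that way. The reverse, every hybrid library below, held for 0 members and for 1.53% of all L and 1.07% of all S features. The members also had higher net levels than the features they are set beside. Medians were 2.67 CPM for the 28 L members against 0.528 CPM for all tested L features, and 3.72 against 0.687 CPM for S. The part of level in these shares was not tested.

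The background on most members was close to nothing. No count at all fell on 15 of the 54 copies in the X. tropicalis libraries, and 29 had 3 or fewer counts over the 3 libraries. Most tested copies thus reached the minimum of 10 counts only through the hybrids, and could hardly have lain below background. Among the 44 copies above background, the X. tropicalis libraries held a median of 0.00734 CPM and at most 0.413 CPM, while the net hybrid level had a median of 4.44 CPM and ranged from 0.455 to 40.2 CPM. The background was above 1% of the hybrid level in 5 of these 44.

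Paternal copies are listed next by net level, which is not divided by transcript length, so the order is one of counts and not of molecules. The S copy of rps13, a small-subunit protein, had the highest net level of all, with 2680, 2872 and 3916 counts in the hybrid libraries and 39, 69 and 4 in the X. tropicalis libraries. That is a net level of 40.2 ± 13.8 CPM (SD, n = 3). rpl3.S, whose protein reaches towards the peptidyl transferase centre, had 864, 1537 and 1353 counts in hybrids and 0, 2 and 0 in X. tropicalis embryos, for a net 15.7 ± 4.31 CPM. The ratio of its summed counts, each over the summed library sizes of the group, was 2200. Its 95% counting interval ran from 609 to 18175, which is wide because it rests on 2 background counts. Both genes lie on chromosome 4S.

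rps3a.S, on the solvent side of the small subunit, had 798, 1356 and 1278 counts in hybrids and 6, 4 and 2 in X. tropicalis embryos (net 14.4 ± 4.12 CPM). rps16.S, whose protein contacts the tRNA in the decoding groove, had 1045, 744 and 1118 counts in hybrids and 8, 5 and 8 in X. tropicalis embryos (net 12.4 ± 4.08 CPM). In both, the smallest hybrid count was at least 744. Next came rps6.L, a small-subunit protein phosphorylated downstream of growth signals, with 584, 1015 and 1043 counts in hybrids and 0, 2 and 1 in X. tropicalis embryos (net 11.2 ± 3.79 CPM), and rps4x.L, with 558, 1191 and 768 counts in hybrids and 1, 2 and 0 in X. tropicalis embryos (net 10.4 ± 2.97 CPM). The ratios of their summed counts to background, taken in the same way, were 1032 and 984, with counting intervals from 353 to 5009 and from 336 to 4772.

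Among large-subunit copies, rpl10a.S had 613, 698 and 998 counts in hybrids and 0, 18 and 6 in X. tropicalis embryos (net 9.84 ± 3.85 CPM), and rpl36.S had 379, 754 and 1128 counts in hybrids and 2, 2 and 1 in X. tropicalis embryos (net 9.74 ± 5.87 CPM). rpl36.S had the widest spread of these 8 copies relative to its level. Where the X. tropicalis libraries held no count, the fold is a lower bound against 3 counts over the group: rps6.S, with 352, 265 and 178 counts in hybrids, was at least 311-fold higher in hybrids, and rpl14.S, with 194, 309 and 190 counts, at least 271-fold higher. These 2 were picked from the 15 copies without a background count after their values were seen. Of the stalk, rplp1.L had 757, 926 and 349 counts in hybrids and 6, 4 and 4 in X. tropicalis embryos (net 8.20 ± 2.80 CPM). The paralogue copy rpl22l1.L had 42, 152 and 311 counts in hybrids and 0, 12 and 1 in X. tropicalis embryos. It passed (adjusted p = 0.00409, edgeR), though not without hybrid library 42 (0.0829).

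**Figure D3:**
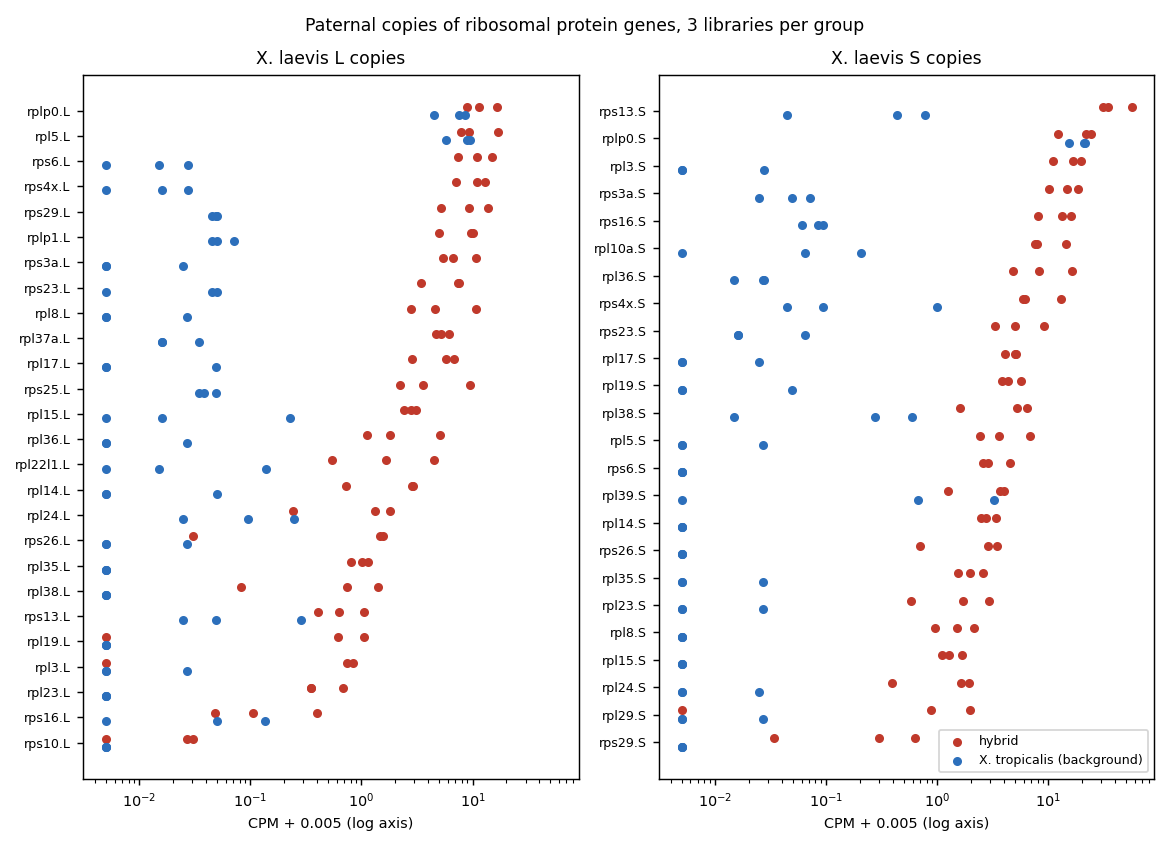
Level of 26 L and 24 S paternal copies (CPM of all counts plus 0.005, log axis) in the 3 hybrid libraries (red, upper points of each row) and the 3 X. tropicalis libraries (blue, lower points), for L copies (left) and S copies (right). The groups stand far apart in most rows. X. tropicalis libraries come near the hybrid level at more than 1 CPM in rplp0.L, rpl5.L, rplp0.S and rpl39.S, and some low rows, such as rps16.L and rpl24.L, overlap too.

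The 9 tested copies that did not pass fall into 2 kinds. In 4 of them the X. tropicalis libraries themselves left many counts on the X. laevis feature, so that the paternal contribution cannot be read. rplp0.S had 1902, 2009 and 851 counts in hybrids and 1390, 1878 and 2142 in X. tropicalis embryos, and its background of 19.2 CPM was 98.6% of the hybrid level. rpl5.L, whose protein carries the smallest large-subunit rRNA into the ribosome, had 720, 1567 and 545 counts in hybrids and 519, 796 and 954 in X. tropicalis embryos, a background of 70.7%. rplp0.L had 894, 818 and 1141 counts in hybrids and 411, 770 and 759 in X. tropicalis embryos, a background of 56.2%. Its hybrid libraries lay just above the X. tropicalis ones, and DESeq2 called it (adjusted p = 0.0422) where edgeR did not (0.133). For rpl39.S the counts were 98, 335 and 277 in hybrids and 0, 60 and 322 in X. tropicalis embryos, a background of 43.6%. Most of that background came from 1 library, and without X. tropicalis library 39 rpl39.S passed (adjusted p = 0.0257, edgeR). The other 5 copies, rps29.S, rpl3.L, rpl24.L, rps13.L and rps16.L, had few counts in hybrids, at most 140 in any library. Of these, DESeq2 called rps29.S, rpl3.L and rpl24.L (adjusted p = 0.0213, 0.0346 and 0.0216). In all, DESeq2 called 24 of 27 L copies (88.9%, against 55.0% of all L features with an adjusted p) and 24 of 26 S copies (92.3%, against 62.3% of all S features), and 0 lower (against 0.645% and 0.52%).

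Within each gene, the paternal level can be set beside the maternal one, since both were sequenced in the same library. Over the 31 genes with both, X. laevis copies took 10.9%, 11.3% and 14.03% of the counts in the 3 hybrid libraries after subtraction of background, a mean of 12.1% ± 1.69 (SD, n = 3). Before subtraction it was 13.6% ± 1.53, and in the X. tropicalis libraries X. laevis features took 2.002% ± 0.240. Over all features, with or without a counterpart in the other species, these shares were 16.7% ± 1.20 and 5.66% ± 0.302. By share of counts before subtraction, the family thus lay below all features. Gene by gene, the net L and S levels together had a median of 14.4% of the X. tropicalis copy, with quartiles of 6.86% and 33.1%. Over all 7740 gene names with both species, the median was 5.15%. The L copies alone had a median of 5.66% (all gene names 2.72%) and the S copies 10.5% (all gene names 3.48%). Transcript lengths were not used here, so these percentages compare counts and not molecules.

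The ratio varied widely among genes. rps13 was the extreme: its paternal copies stood at 375%, 215% and 333% of the X. tropicalis copy in the 3 hybrid libraries, a mean of 307% ± 82.9 (SD, n = 3). The X. tropicalis rps13 feature, on an unplaced scaffold, had 10.95, 17.6 and 20.5 CPM in the hybrids and 14.3, 18.3 and 14.3 CPM in X. tropicalis embryos, so its level did not separate the groups. rpl38 averaged 136% ± 78.2, with 210%, 143% and 53.7% in the single libraries, which lie on both sides of equality. rpl39, whose only paternal copy has the high background given above, averaged 99.98% ± 90.6. In the upper part of the range, rps3a reached 55.8% ± 6.71, rps6 35.4% ± 6.56 and rps4x 37.1% ± 12.7. At the low end, rps10 reached 0.0345% ± 0.0305, rpl22l1 2.46% ± 1.99 and rplp1 3.82% ± 1.82, each with an L copy alone under its symbol. The rps10 value leaves out mkrn3.S on chromosome 2S, which shares the human gene name RPS10-NUDT3 with rps10 but is no member by its own symbol. It had 351, 621 and 717 counts in hybrids and 3, 0 and 2 in X. tropicalis embryos (net 7.17 ± 2.95 CPM). Across the 31 genes the paternal level followed the maternal level weakly (Spearman's rho 0.27, across genes that share libraries and are no independent replicates).

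**Figure D4:**
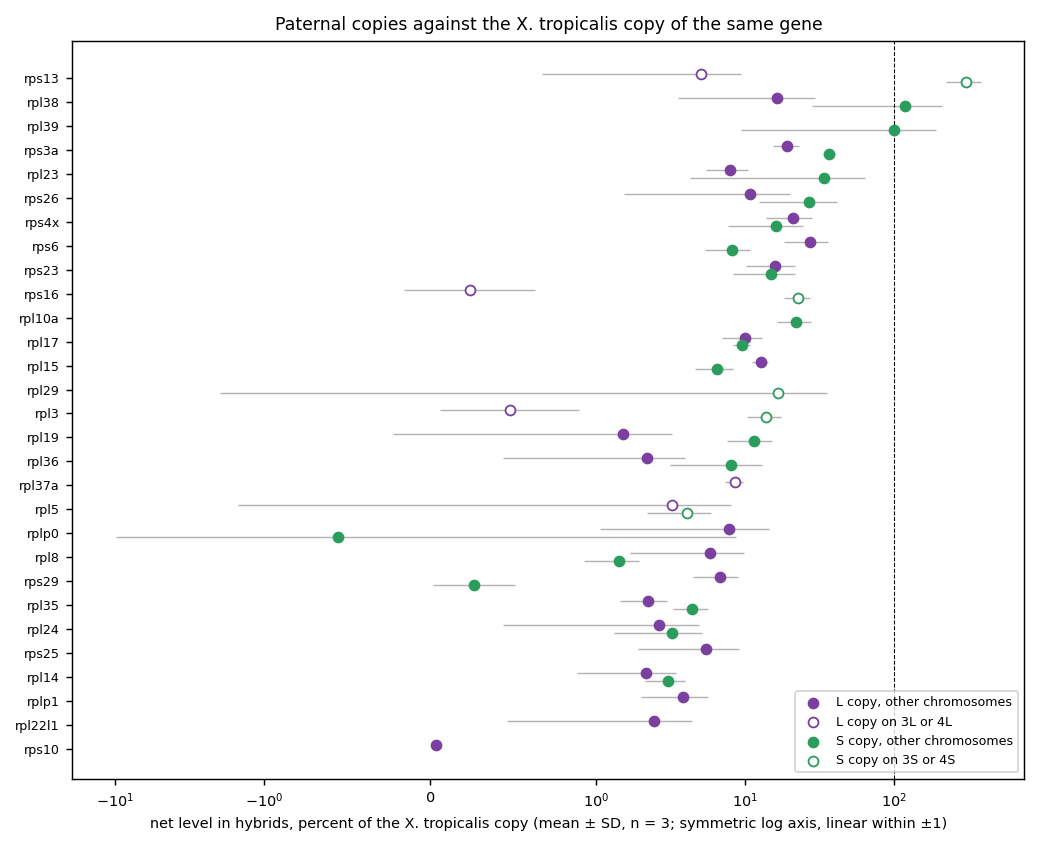
Net level of the L copy (purple) and S copy (green) of 29 genes in hybrids as a percentage of the X. tropicalis copy of the same gene (symmetric log axis, mean ± SD, 3 hybrid libraries); open symbols are copies on chromosomes 3L and 4L or 3S and 4S. Only rps13.S and rpl38.S have means right of the dashed line at 100%, and 4 of the 5 open L symbols lie under 6%.

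The chromosomes of which hybrids of this cross lose a part carried 6 of the L copies. Coordinates were not used, so whether any of the 6 lies in a lost part is not known here. rpl37a.L and rps16.L lie on 3L, and rpl3.L, rpl5.L and rps13.L are among the 4 on 4L. 2 of the 6 passed against background, compared with 19 of 21 tested copies on other L chromosomes. The number that passed on 3L and 4L was 1 without a filter on low counts, without hybrid library 40 or 41 and without X. tropicalis library 37, 38 or 39, and it was 3 with DESeq2, which adds rpl3.L. Over all tested features, 19.5% passed on 3L and 4L and 38.8% on other L chromosomes. The median net level of the 6 was 1.13%, 1.89% and 0.406% of the X. tropicalis copy in the 3 hybrid libraries, a mean of 1.14% ± 0.742. For the 22 copies on other L chromosomes it was 4.60%, 6.12% and 9.53%, a mean of 6.75% ± 2.52. In each library the median on 3L and 4L was the lower one. Over all gene names, with each gene averaged over the libraries first, the medians were 0.476% on 3L and 4L and 3.70% on other L chromosomes. This is not quite the measure used for the members, but the direction is the same, so the difference is not particular to ribosomal protein genes.

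Members on 3L and 4L were not uniform. rpl37a.L had 410, 434 and 428 counts in the hybrid libraries against 1, 1 and 3 in the X. tropicalis libraries. Its net level averaged 8.56% of the X. tropicalis copy, above the mean of the library medians of L copies elsewhere (6.75%). In hybrid library 42, however, its 8.66% lay under the median of 9.53% elsewhere. rpl3.L had 58, 0 and 58 counts in hybrids and 2, 0 and 0 in X. tropicalis embryos. rps13.L had 82, 57 and 28 counts in hybrids and 4, 25 and 2 in X. tropicalis embryos, and rps16.L had 31, 4 and 7 counts in hybrids and 0, 4 and 13 in X. tropicalis embryos. None of these 3 passed in edgeR, and neither did rpl5.L with its background of 70.7%. DESeq2 called rpl3.L (adjusted p = 0.0346). Without subtraction of the background the median on 3L and 4L was 3.07%, and that on other L chromosomes was 7.93%.

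The S copies on 3S and 4S differed from this. All 6 of them, rps16.S, rps13.S, rpl3.S, rpl5.S and rpl29.S included, passed against background. Their median net level was 18.9%, 13.7% and 12.1% of the X. tropicalis copy in the hybrid libraries, a mean of 14.9% ± 3.53, and that of the 20 S copies on other chromosomes was 8.72% ± 1.74. This order depends on how members are taken: with ribosomal proteins taken by human gene name, chosen after seeing the data, the medians were 5.09% ± 1.11 for 16 features on 3S and 4S and 7.67% ± 0.653 for 55 on other S chromosomes. Over all gene names, with each gene averaged over the libraries first, the medians were 2.999% on 3S and 4S and 3.59% on other S chromosomes. rpl29.S is the weakest of the 6, with 154, 81 and 0 counts in hybrids and 2, 0 and 0 in X. tropicalis embryos, and lost its call without hybrid library 40 or 41 or X. tropicalis library 38 or 39.

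The 23 genes with an L and an S copy were then compared within the hybrid libraries, L count over S count, with the library as a block (edgeR's quasi-likelihood test, Benjamini-Hochberg adjustment over 4128 L and S pairs). The L copy was higher in 1 pair and the S copy in 3, against 11.4% and 11.9% of all pairs. S was higher in all 3 libraries in 11 pairs, L was higher in all 3 in 6 pairs, and 6 were mixed. The same shares over all pairs are not given here, so these counts do not set the family apart. The median log2 ratio was -0.67, and -0.04 over all pairs. Of the 5 pairs with L on 3L or 4L, S was higher in 4. The exception by counts was rpl5, where 70.7% of the L level is background. After subtraction its L copy had 3.33 ± 4.96 CPM and its S copy 4.30 ± 2.31 CPM (SD, n = 3). L stayed higher in hybrid library 41 alone, so the order of this pair is not settled. The fitted ratio was positive in 9 of the 23 pairs and negative in 14, against 49.6% and 50.4% of all pairs. In the 18 pairs with L elsewhere it favoured S in 10 and L in 8, so the members outside these chromosomes were divided between the subgenomes. Among the S-favouring pairs was rplp0 (log2 ratio -0.67), where 56.2% of the L level and 98.6% of the S level is background. After subtraction its L copy had 5.36 ± 3.84 CPM and its S copy 0.276 ± 6.35 CPM (SD, n = 3). S stayed higher in hybrid libraries 40 and 41 and L was higher in library 42, so this order is not settled either.

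The called pair with the smallest p was rps13, with 82, 57 and 28 counts for L and 2680, 2872 and 3916 for S (log2 ratio -5.91 ± 0.54, adjusted p = 0.00148, edgeR). rps16 followed with 31, 4 and 7 counts for L and 1045, 744 and 1118 for S (-6.57 ± 0.84, adjusted p = 0.00457, edgeR). In both the L copy lies on 3L or 4L. Part of the few L counts equals what X. tropicalis RNA leaves there, 16.6% of the hybrid level for rps13.L and 32.2% for rps16.L.

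The other 2 called pairs lie elsewhere and point in opposite directions. rps29, a zinc-binding protein of the small-subunit head, had 404, 857 and 948 counts for L and 49, 27 and 2 for S, both on chromosome pair 8 (log2 ratio 5.29 ± 1.35, adjusted p = 0.0402, edgeR). Its call did not hold without hybrid library 41 or 42 (adjusted p = 0.180 and 0.0703, edgeR). rpl36 had 88, 164 and 353 counts for L and 379, 754 and 1128 for S, both on chromosome pair 1 (-1.99 ± 0.50, adjusted p = 0.0392, edgeR). Its call did not hold without any 1 of the 3 hybrid libraries (adjusted p between 0.121 and 0.168, edgeR). Limma on log2(CPM + 1) with the library as block called 5 pairs with L higher and 9 with S higher, so the number of unequal pairs depends on the test.

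**Figure D5:**
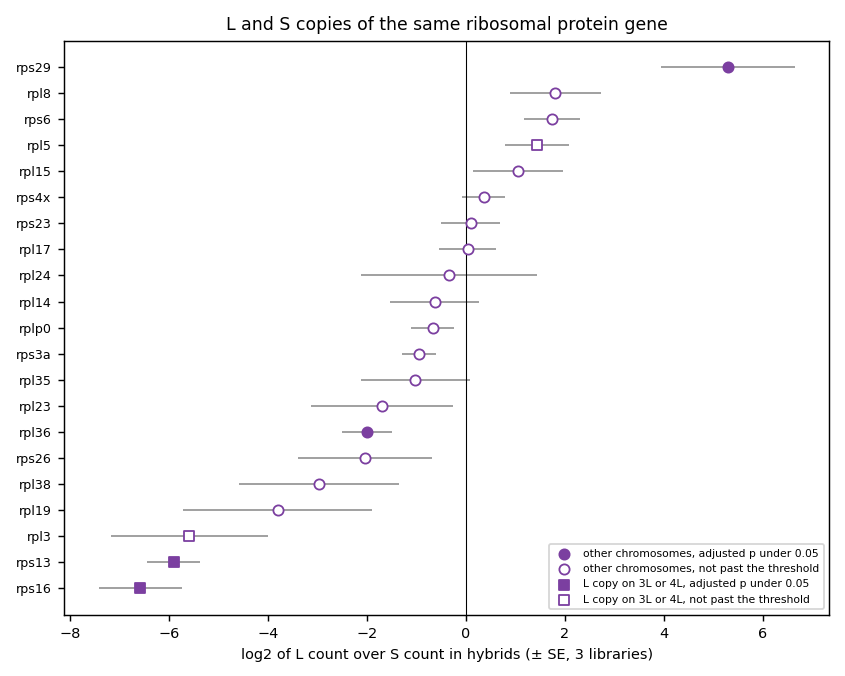
Log2 ratio of L count over S count in hybrids (horizontal axis, bars ± SE, 3 libraries) for 21 of the 23 ribosomal protein genes with both copies; squares are pairs whose L copy lies on 3L or 4L, and filled symbols have an adjusted p under 0.05. The filled squares, rps13 and rps16, lie near -6, while circles lie on both sides of 0.

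Related gene groups put the X. tropicalis copies in context. Of 40 tested ribosome biogenesis genes, the nucleolar factors and RNA polymerase I subunits that build ribosomes, none was called in either direction (edgeR; before adjustment 5 passed 0.05 as higher and 3 as lower, and DESeq2 called 2 and 2). Over all tested X. tropicalis features, edgeR called 0.76% higher and 3.0% lower, and 7.56% and 10.3% passed 0.05 before adjustment. DESeq2 called 2.83% and 5.65% of them. The median log2 fold change of the 40 genes was -0.02. The smallest p belonged to ubtf, an RNA polymerase I transcription factor, with 187, 183 and 185 CPM in the hybrids and 253, 234 and 242 CPM in X. tropicalis embryos (-0.40 ± 0.11, adjusted p = 0.0806, edgeR). eif6, which keeps new large subunits from joining too early, averaged 283 ± 38.6 CPM in the hybrids and 203 ± 25.5 CPM in X. tropicalis embryos (0.48 ± 0.14, adjusted p = 0.103, edgeR). pno1, a small-subunit assembly factor, averaged 133 ± 17.3 CPM in the hybrids and 93.7 ± 10.9 CPM in X. tropicalis embryos (0.50 ± 0.15, adjusted p = 0.111, edgeR). The 3 named genes lay on both sides of 0. Scaling to both species gave 2 lower calls in this list (830 of 14079 over all features). Leaving out hybrid library 40 gave 1 higher call (147 of 14884 over all features).

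Translation factors and other mRNAs of the oligopyrimidine class had values on both sides of 0. Of 24 tested, 0 were called higher and 1 lower (edgeR), against 0.76% and 3.0% of all tested features. Before adjustment 3 passed 0.05 as higher and 4 as lower, against 7.56% and 10.3%. The log2 fold change was positive in 15 of the 24, with a median of 0.10. When scaled to both species 9 were positive, and the median was -0.08. The gene called lower was eef1a1o, the oocyte form of elongation factor 1 alpha, with 1783, 1273 and 1665 CPM in the hybrids and 2604, 2496 and 2415 CPM in X. tropicalis embryos (-0.67 ± 0.13, adjusted p = 0.0139, edgeR). Every hybrid library lay below every X. tropicalis library. No gene of the list was called without X. tropicalis library 37 or 39. Scaling to both species gave 4 lower (830 of 14079 over all features). DESeq2 gave 1 higher and 3 lower (2.83% and 5.65% over all features). eif3a, a scaffold of the initiation factor that binds the small subunit, averaged 384 ± 25.5 CPM in the hybrids and 525 ± 48.0 CPM in X. tropicalis embryos (-0.45 ± 0.11, adjusted p = 0.0604, edgeR), and hnrnpa1, an RNA-binding splicing regulator, 939 ± 108 CPM in the hybrids and 1239 ± 172 CPM in X. tropicalis embryos (-0.40 ± 0.13, adjusted p = 0.143, edgeR).

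Mitochondrial ribosomal proteins, which belong to a separate ribosome inside the organelle, had 57 tested members and none called in either direction (edgeR; before adjustment 15 passed 0.05 as higher and 0 as lower, and DESeq2 called 1 and 0). Before adjustment, 7.56% of all tested features passed as higher and 10.3% as lower, and DESeq2 called 2.83% and 5.65%. Their log2 fold change was positive in 56 of 57, against 49.5% of all tested features, with a median of 0.52. When scaled to both species the median was 0.33, and 50 were positive, against 4840 of 14079 features. 1 was called higher without hybrid library 40, without X. tropicalis library 38 or without a filter. Over all features these settings called 147 of 14884, 119 of 14643 and 244 of 18062 higher. mrpl41 averaged 15.9 ± 2.20 CPM in the hybrids and 7.36 ± 2.66 CPM in X. tropicalis embryos (1.11 ± 0.34, adjusted p = 0.121, edgeR). mrpl44 averaged 42.6 ± 5.57 CPM in the hybrids and 26.6 ± 5.07 CPM in X. tropicalis embryos (0.68 ± 0.21, adjusted p = 0.120, edgeR). mrps11 averaged 79.9 ± 15.0 CPM in the hybrids and 51.9 ± 8.80 CPM in X. tropicalis embryos (0.62 ± 0.19, adjusted p = 0.124, edgeR). Positive values were thus found in both the cytosolic and the mitochondrial ribosome.

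The paternal copies of these groups also differed in value. X. laevis copies passed against background in 21 of 29 L (72.4%) and 22 of 25 S (88.0%) features of ribosome biogenesis, in 15 of 17 L and 15 of 17 S features (88.2% each) of the translation factor group, and in 11 of 24 L (45.8%) and 7 of 24 S (29.2%) features of the mitochondrial ribosome, against 35.2% of all L and 41.3% of all S features. The median paternal level was 8.56%, 9.11% and 1.74% of the X. tropicalis copy in these 3 groups, next to 14.4% for the cytosolic ribosomal proteins and 5.15% for all gene names. No test between groups of genes was made.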

How the data were processed

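Counts per feature were deposited by the authors as 1 table of whole numbers for both species, with no normalization. BWA 0.7.10 is named in the submitters' processing notes. Neither counter, genome build nor strand setting is named: these are not given in the sources here. Among features with 1 to 20 counts, 58.4% to 64.7% were even in each library, so the 2 mates of a fragment may have been counted apart. The intervals and floors, which cover counting error only, would then be too narrow. Every column was mapped to a sample (0 unmapped). Replicates of a group differed far beyond sampling noise (chi-square per degree of freedom 77.3 to 141).

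X. tropicalis features were tested with edgeR 4.0.16 (R 4.3.3; filterByExpr, TMM). For X. laevis features the minimum was 10 counts summed over all 6 libraries, and scaling used the TMM factors of the X. tropicalis features. L and S counts were paired within a library, which is true by construction. Common dispersions gave a biological coefficient of variation of 0.649 (X. tropicalis features), 1.32 (X. laevis features) and 0.994 (pairs). DESeq2 1.42.0 and limma 3.58.1 were alternatives, beside other scaling, other filters and leaving out each library. The scripts were tested on simulated data that varied less between libraries than these data do, which does not give their error rates here. SE was taken from the fit as |log2 fold change| over √F. The X. laevis copy of a gene can take reads of its X. tropicalis copy and of its homeolog, and the X. tropicalis libraries measure only the first.

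The members and gene lists were chosen with earlier results of these data known. Genes named are those that passed, the 8 X. tropicalis copies with the smallest p, the 8 paternal copies with the highest net level, the members on 3L and 4L, the 4 copies with the highest background, the called pairs, the stalk proteins and paralogues, and 3 genes per list with the smallest p. Others are said to be chosen after their values were seen or serve as examples. Sequences and coordinates were not used here. The values of 2 genes are not reported here, and they are not drawn in the figures, but they remain in the fits and counts.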

Additional observations from a re-analysis of the deposited data

Results flagged for a closer look

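The name rule leaves out features that carry a ribosomal protein as their human gene name but another symbol of their own. There were 115 of these, 18 from X. tropicalis and 97 from X. laevis. Of the 97, 89 were tested and 61 lay above the X. tropicalis-library background, against 37.4% of all tested X. laevis features. The test was edgeR's quasi-likelihood test, with an adjusted p under 0.05 over all X. laevis features. These 61 are a signal in data that the comparisons above do not use. The summed net level of the X. laevis features outside the rule was 289, 425 and 484 CPM in the 3 hybrid libraries. Its mean was 399 ± 100 CPM (SD, n = 3), next to 268 ± 65.6 CPM for the X. laevis members. The named paternal copies therefore hold less than the whole paternal ribosomal protein signal. Of the 18 X. tropicalis features, 16 were tested and 0 called in either direction by edgeR, with a median log2 fold change of 0.45.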

How the results depend on the processing

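No paired analysis was possible because the hybrid and X. tropicalis libraries share no replicate number. The count of X. tropicalis copies called higher in hybrids was 1, and it was 0 with library totals over both species, 6 without a filter, 7 with DESeq2 and between 0 and 3 when 1 library was left out. Over all X. tropicalis features the split of calls was 107 higher and 422 lower, 82 and 830 with totals over both species, and 398 and 795 with DESeq2. The family's median log2 fold change of 0.32 was 0.14 with totals over both species. With members taken by human gene name, an alternative chosen after seeing the data, 43 of 66 tested L copies (65.2%) and 56 of 70 tested S copies (80.0%) passed, lower shares than by symbol (77.8% and 88.5%). The median on 3L and 4L was then 0.359% of the X. tropicalis copy, and 7.30% on other L chromosomes. With members taken by symbol and no background subtraction, these medians were 3.07% and 7.93%. Pairs with L higher numbered 5 with limma and between 0 and 1 when a library was left out. Pairs with S higher numbered 1 among pairs with a background under 10% and 9 with limma, the first because rps13 and rps16 are then not included. Without the 5 members with most counts, the paternal share was 14.9%, and the ribosomal protein share was 0.337% in hybrids and 0.260% in X. tropicalis embryos; over the counts of both species it was 0.374% in hybrids and 0.330% in X. tropicalis embryos. rplp0.S, at 0.02 on the log2 scale and not past the threshold, ranged from -0.17 to 0.27 when a library was left out, with -0.07 without hybrid library 41 and -0.11 without X. tropicalis library 37. Except by construction, the cause was not tested. Depth limits the low paternal copies: L copies that passed numbered 17 to 19 when a library was left out.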
